A study of Mus musculus with 15 samples.

Results

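Apolipoproteins are the protein parts of plasma lipoproteins, and 10 of their genes were described here in the livers and liver tumours of Mdr2-knockout mice: Apoa1, Apoa2, Apoa4, Apoa5, Apob, Apoc1, Apoc2, Apoc3, Apoe and Apom. The members were chosen by name, and all probe sets that the array annotation gives to these genes alone were taken, 15 of the 22690 probe sets in the table. Apoa1 had 4 probe sets, Apoa4 and Apom had 2 each, and the other genes had 1 each. All 15 passed the filter on dim signals, and the 10 genes stand among 9532 genes tested. Total RNA of frozen liver tissue had been measured on Affymetrix arrays in mice that were all 16 months old. The control group was the liver of 3 heterozygous mice, which carry a disrupted Mdr2 copy as well. Against it stood 6 non-tumorous livers and 6 tumours of mice homozygous for the Mdr2 knockout. The labels number samples by animal: tumours 3 and 4 match livers 3 and 4, and mice 5 and 6 gave 2 tumours each (5-1, 5-2, 6-1 and 6-2) beside livers 5 and 6. The 6 tumours are thus from 4 animals, and livers 1 and 2 have no matched tumour. No liver of a mouse with intact Mdr2 was analysed here, and the labels name no strain or sex.

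Hepatocytes secrete most circulating apolipoproteins. Apob is the structural protein of very low density lipoproteins (VLDL), which carry triglycerides out of the liver, while Apoa1 and Apoa2 build high density lipoproteins (HDL), which carry cholesterol back to it. The small exchangeable proteins set how fast triglyceride is cleared: Apoc2 is the cofactor that lipoprotein lipase needs, Apoa5 favours lipolysis, and Apoc3 and Apoc1 slow it. Apoe is the ligand by which remnants are taken up, Apoa4 rises with hepatic and intestinal lipid export, and Apom carries sphingosine-1-phosphate on HDL. Mdr2, now Abcb4, moves phosphatidylcholine from hepatocytes into bile.

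Promoter sequence is shown for the 3 members whose difference between groups passed the test in at least 1 comparison. RefSeq lists a promoter for 8 of the 10 members on mouse assembly GRCm38.p6, and the 250 bases before the start site were searched on both strands for 3 motifs. TATAAA is the core of a TATA box. The sequence AGGTCA is a core site of nuclear receptors. A form of the site that HNF4A binds is CAAAGNNCA, which can overlap the nuclear receptor core site. Capitals mark the matches, and each sequence is printed 5′ to 3′ on the strand of its gene. The Apoa4 promoter lies at chr9:46240594-46240843 on the plus strand, the Apoa5 promoter at chr9:46268358-46268607 on the plus strand and the Apoc2 promoter at chr7:19677942-19678191 on the minus strand.
Apoa4: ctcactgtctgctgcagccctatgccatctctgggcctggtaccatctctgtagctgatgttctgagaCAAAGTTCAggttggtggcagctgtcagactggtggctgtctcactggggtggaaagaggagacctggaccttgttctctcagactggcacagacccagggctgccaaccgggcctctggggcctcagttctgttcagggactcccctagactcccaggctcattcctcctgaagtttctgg
Apoa5: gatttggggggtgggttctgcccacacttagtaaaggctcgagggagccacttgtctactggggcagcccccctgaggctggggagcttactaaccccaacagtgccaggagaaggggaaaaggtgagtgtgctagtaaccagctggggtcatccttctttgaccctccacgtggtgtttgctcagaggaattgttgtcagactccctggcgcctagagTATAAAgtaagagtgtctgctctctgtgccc
Apoc2: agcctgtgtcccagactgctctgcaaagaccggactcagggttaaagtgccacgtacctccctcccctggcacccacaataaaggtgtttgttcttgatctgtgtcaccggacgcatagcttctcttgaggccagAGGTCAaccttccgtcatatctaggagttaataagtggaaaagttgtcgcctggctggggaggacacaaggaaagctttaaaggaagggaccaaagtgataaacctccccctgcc
The match in Apoa4 was CAAAGNNCA, with its leftmost base at -182 from the start site. That in Apoa5 was TATAAA at -31, and that in Apoc2 was AGGTCA at -115. Apob also held TATAAA, at -60, and CAAAGNNCA on the opposite strand, at -103, and Apoa2 held AGGTCA on the opposite strand, at -238. Positions are counted from the start site of the promoter used, which for Apob did not match the annotated start of the gene. For Apoa2 and Apoa5, 2 promoters each are listed, and 1 of each was used. Of 27025 promoter windows of this length, 13.0% held the TATA box core. The nuclear receptor core site was in 13.8% and the HNF4A form in 5.47%. The matches describe letters and say nothing of binding in these livers. Apoa1, Apoc3, Apoa4 and Apoa5 are neighbours on chromosome 9, and Apoe, Apoc1 and Apoc2 on chromosome 7; Apoa2 is on chromosome 1, Apob on chromosome 12 and Apom on chromosome 17.

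The values are MAS5 signals, a linear measure of probe set brightness that had been scaled to the same trimmed mean on every array, and their precision is limited by the number of arrays. Abcb4, the check of the labels, had signals of 779 to 1006 in the controls, 177 to 306 in knockout livers and 123 to 681 in tumours; where its probe set lies relative to the disruption is not known. Albumin, which marks hepatocytes, was at place 7 of all probe sets by mean signal. Summed over 11 hepatocyte markers, the signal was 106176 to 117407 in the controls, 81998 to 111168 in the knockout livers and 73024 to 90270 in the tumours, so that the tumours lay below every control. The ratio of the actin 3' signal to the actin 5' signal is higher where the RNA is shorter. It averaged 2.99 ± 0.414 (SD, n = 3) for controls, 2.09 ± 0.393 (SD, n = 6) for knockout livers and 1.78 ± 0.208 (SD, n = 6) for tumours. By an exact two-sided permutation test it was lower in tumours than in controls at p = 0.0238, the smallest that 6 against 3 samples allow, and 0.0714 after adjustment over 6 tests. In bulk tissue, fewer cells of a type and less RNA per cell cannot be told apart. The labels name separate mice within each group apart from the tumours that share an animal.

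Relative to the controls, the non-tumorous knockout livers had more Apoa4 and Apoc2 signal in every sample, and less Apoa1, Apoa2 and Apom in every sample, except that 1 of the 4 Apoa1 probe sets overlapped in liver 5. The tumours had high Apoc2 and low Apoa5, and differed widely from each other in Apoa4 and Apom. Of the 10 genes, 1 passed the test across all genes in the knockout livers against controls (Apoa4, higher), beside 1.68% of all genes tested, or 1.36% for higher genes. In tumours against controls 2 passed (Apoc2 higher and Apoa5 lower), beside 6.87% of all genes, 3.93% higher and 2.94% lower. In tumours against non-tumorous knockout livers 0 passed in limma, beside 0.136% of all genes. There, 2 of the 10, Apoa5 and Apoc2, had an unadjusted limma p under 0.05, beside 985 of the 9532 genes tested. All 3 comparisons share samples, so that their values for a gene are not independent of each other.

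**Figure D1:**
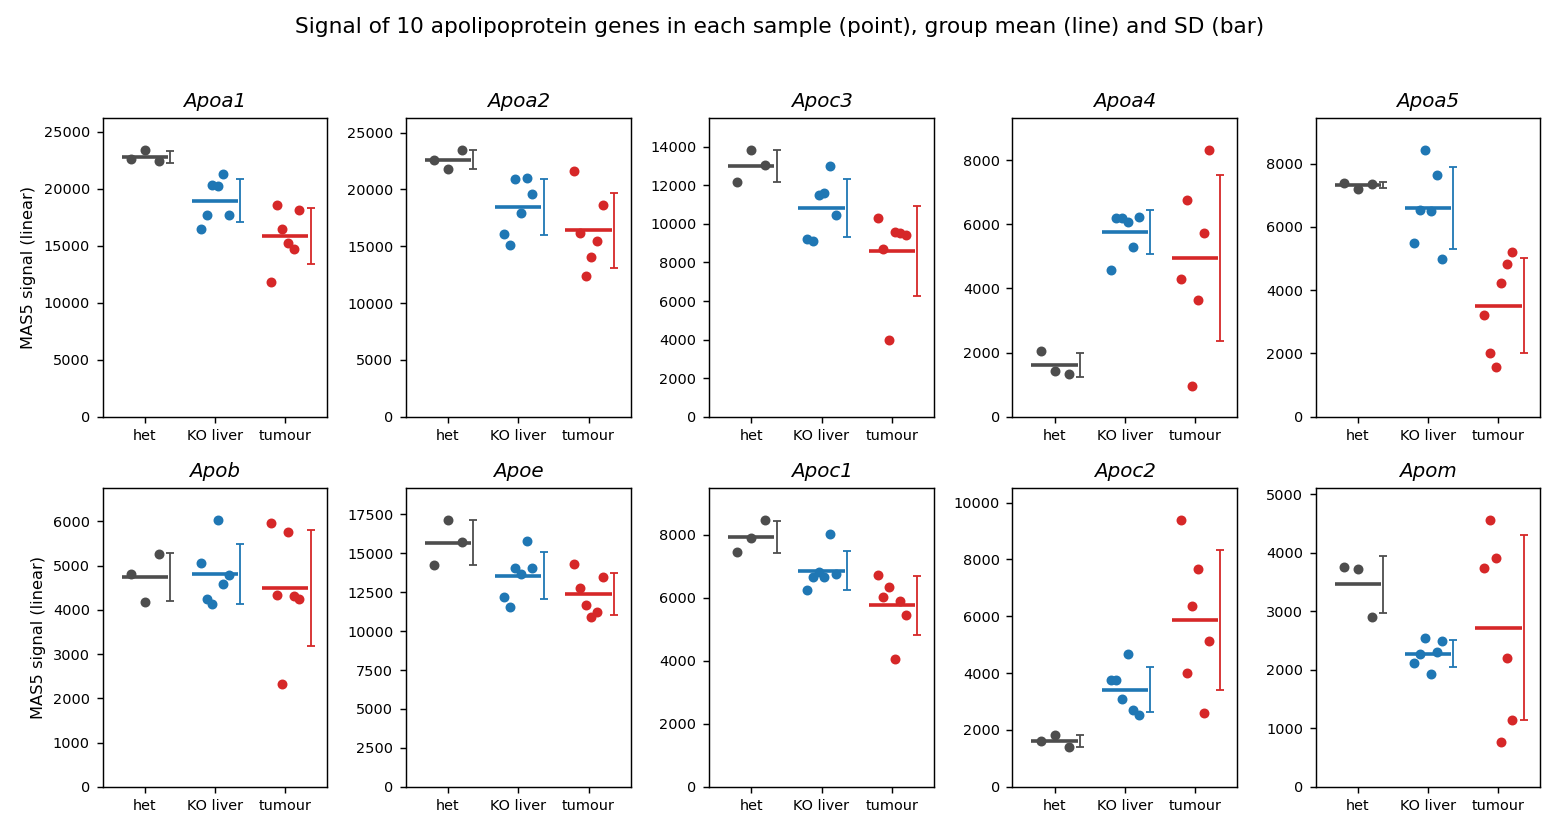
MAS5 signal (linear axis from 0) of each apolipoprotein gene in every sample, by group: het, heterozygous liver (n = 3); KO liver, non-tumorous knockout liver (n = 6); tumour (n = 6). Points are samples, lines group means and bars SD. Apoc2 lies above every control in all 12 knockout samples, and the tumours reach from below to above the range of the non-tumorous livers for Apoa4 and Apom.

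Apoa1, the main HDL protein, had signals of 22571, 23369 and 22410 in controls 1 to 3. In knockout livers 1 to 6 they were 16503, 17681, 20279, 20204, 21263 and 17653. In tumours 3, 4, 5-1, 5-2, 6-1 and 6-2 they were 11850, 18531, 16417, 15231, 14730 and 18113. On this probe set, the one used for the gene, every knockout sample lay below every control, tumour 3 was the lowest of all, and the tumours overlapped the non-tumorous livers. On 1 of the other 3 probe sets liver 5, at 22250, lay above controls 2 and 3, at 22016 and 22171, and 5 of 6 livers were below every control. The log2 change was -0.27 ± 0.16 (SE; adjusted p = 0.454, limma) in the livers against controls and -0.54 ± 0.16 (adjusted p = 0.0552) in the tumours against controls, so that neither passed. With quantile normalization, which gives all arrays the same distribution, the change in the livers was 0.019. The 4 probe sets correlated with each other at r of 0.928 to 0.965 over the 15 samples. When every probe set was tested on its own, with adjustment over 16128 probe sets, 3 of these 4 passed in tumours against controls.

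Apoa2, the other main HDL protein, had signals of 22554, 21808 and 23444 in the controls. The knockout livers gave 16088, 15148, 20906, 17918, 20988 and 19631, and the tumours, in the same order as above, 21652, 16123, 12421, 14055, 15495 and 18645. Every knockout sample was again below every control, here with tumour 3 the closest to them and tumour 5-1 the farthest. The log2 change from the controls was -0.30 ± 0.18 (SE; adjusted p = 0.454) in the livers and -0.48 ± 0.18 (adjusted p = 0.122) in the tumours. With quantile normalization the difference between tumours and controls was 0.0017 for Apoa2, against -0.094 for Apoa1. The probe set of Apoa2 and the 4 of Apoa1 held places 2 to 6 of all probe sets by mean signal over the arrays, and the table carries no saturation flags, so compression at the top of the scale was not tested.

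Apom, the sphingosine-1-phosphate carrier, had signals of 3751, 3729 and 2899 in the controls and of 2119, 2273, 2550, 1931, 2301 and 2484 in the knockout livers. In the tumours they were 3735, 4553, 3915, 762, 2209 and 1141. The non-tumorous livers were narrowly grouped below every control. The tumours fell on either side of them, with 3, 4 and 5-1 above every non-tumorous liver and 5-2 and 6-2 below every one. The ratio of the highest to the lowest tumour was 5.97. Tumour 4 was the highest and tumour 5-2 the lowest; tumour 5-1, from the same mouse as 5-2, was the second highest. The second probe set, with r of 0.951 to the other, gave tumour signals of 1962, 2486, 1977, 478, 1398 and 596 in the same sample order. On it 4 tumours, 6-1 among them, were above every non-tumorous liver, and 2 were below every one. The log2 change was -0.60 ± 0.42 (SE; adjusted p = 0.528) in knockout livers against controls and -0.02 ± 0.34 (adjusted p = 0.992) in tumours against knockout livers in a fit that uses 1 error per gene for all groups. With the livers and controls alone in the fit, the first of these differences passed (-0.60, adjusted p = 0.00500).

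Apoa4, a protein of newly made triglyceride-rich particles and HDL, was the member that rose in the non-tumorous livers. Its signals were 2052, 1439 and 1347 in the controls and 4578, 6183, 6196, 6079, 5289 and 6230 in the knockout livers. In the tumours they were 4286, 6753, 960, 3655, 5722 and 8309. All 6 non-tumorous livers were above every control, as were 5 of 6 tumours, while tumour 5-1 was below every control. The rise in the livers was 3.60-fold, or 1.85 ± 0.45 on the log2 scale (SE; 6 livers, 3 controls; limma adjusted p = 0.0442), and the other Apoa4 probe set, with r of 0.993 to this one, gave 4.40-fold (log2 change 2.14 ± 0.52, adjusted p = 0.0441 over all probe sets). The call lay close to the threshold: it was lost without any 1 of the 3 controls (log2 change 1.73 to 2.03, adjusted p = 0.119 without control 1, 0.173 without control 2 and 0.206 without control 3) and without any 1 of the 6 livers (adjusted p = 0.0554 to 0.0868). Without tumour 5-1 the adjusted p was 2.11e-04, and with livers and controls alone it was 1.2e-06.

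In the tumours against controls the Apoa4 difference was 1.37 ± 0.45 on the log2 scale (SE; adjusted p = 0.0741) and did not pass; without tumour 5-1 it was 1.79 (adjusted p = 2.85e-04). Apoa4 is also a gut gene. Of 10 intestinal epithelium markers 8 were on the array and 4 passed the filter on dim signals; Vil1, Lct, Cdx1 and Cdh17 did not. Of the 4 tested, 0 passed in any comparison in limma and 0 had an unadjusted p under 0.05. Fabp2 had mean signals of 589 in controls, 740 in knockout livers and 655 in tumours, where it ranged from 150.4 to 1422.5. The summed signal of the 4 was 990, 1096, 405, 816, 601 and 1702 in tumours 3, 4, 5-1, 5-2, 6-1 and 6-2. It was lowest in tumour 5-1 and highest in tumour 6-2, as was Apoa4. How far these markers and Apoa4 vary together was not tested.

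Apoa5, which favours lipolysis of triglyceride, was the member that fell in the tumours. The controls lay within a narrow range, at 7391, 7203 and 7361. The knockout livers gave 5491, 6543, 8423, 6500, 7630 and 4989, and the tumours 3212, 2016, 1569, 4216, 4821 and 5213. Every tumour was below every control, and 5 of 6 were below every non-tumorous liver; tumour 6-2 overlapped the lowest liver. The tumours were 2.28-fold below the controls, with a log2 difference of -1.19 ± 0.31 (SE; 6 tumours, 3 controls; limma adjusted p = 0.0273). Against the non-tumorous livers the difference was -1.02 ± 0.25 (SE; adjusted p = 0.145). Without any 1 control the call was lost, at adjusted p = 0.101 without control 1, 0.0969 without control 2 and 0.0987 without control 3, with log2 changes of -1.20 to -1.18. Quantile normalization ended the call too (adjusted p = 0.0571), as did a fit of the tumours and controls alone (-1.21, adjusted p = 0.136). When the tumours of a mouse were averaged, the difference from the non-tumorous livers passed (-1.10, adjusted p = 0.0264).

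Apoc2, the cofactor of lipoprotein lipase, had signals of 1612, 1841 and 1401 in the controls. The knockout livers gave 3748, 3770, 3088, 4666, 2716 and 2518, and the tumours 9375, 3999, 6354, 7661, 2613 and 5133. All 12 knockout samples were above every control, and 4 of 6 tumours were above every non-tumorous liver. The tumours were 3.33-fold above the controls, a log2 difference of 1.74 ± 0.31 (SE; 6 tumours, 3 controls; limma adjusted p = 0.00277). The call held in each of the 15 fits that left out 1 sample, with log2 changes of 1.58 to 1.95. The non-tumorous livers were 2.07-fold above the controls, but this did not pass in limma (log2 change 1.05 ± 0.31, adjusted p = 0.0949). Without tumour 6-1 it did (adjusted p = 0.0397), the only 1 of the 15 fits without a sample that passed. Of 13 other alternatives 3 passed. These were livers and controls alone (adjusted p = 7.85e-04), averaged tumours of a mouse (0.0359) and array weights (0.00712). Between tumours and non-tumorous livers the difference was 0.68 ± 0.25 (SE, adjusted p = 0.339). With the actin ratio as a covariate in limma, the difference between tumours and controls was 1.06 ± 0.50 for Apoc2 (SE; adjusted p = 0.434). For Apoa5 it was -1.11 ± 0.54 (SE; adjusted p = 0.447), and neither call was kept. The ratio was 1.51 to 2.06 in tumours and 2.55 to 3.37 in controls. Without overlap, this fit cannot separate the covariate well from the group.

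Apoc2 is made by macrophages as well as hepatocytes. Of 18 macrophage and Kupffer cell markers tested, 2 rose in the knockout livers (Cd68 and Lyz2), beside 1.36% of all genes. In the tumours against controls 7 rose (the same pair with C1qa, C1qb, Mpeg1, Cd14 and Aif1), beside 3.93% of all genes. The median log2 change of the 18 was 0.985 and 0.981 in these comparisons, with 15 and 13 above 0. Those below 0 in tumours were Clec4f (-0.82), Cd5l (-0.65), Vsig4 (-0.42), Marco (-0.40) and Trem2 (-0.29), and none of them was called. The summed signal of the 18 was 3281 to 3601 in the controls and 4840 to 7788 in the knockout livers. In the tumours it was 6092, 2042, 11512, 7328, 6989 and 10897, in the order 3, 4, 5-1, 5-2, 6-1 and 6-2. The sum was below every control in tumour 4 and above every control in the other 5 tumours. The share of macrophages in the Apoc2 signal was not tested.

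Apoc3, an inhibitor of triglyceride clearance, had signals of 12169, 13821 and 13062 in the controls, and of 9239, 9125, 11522, 11580, 13016 and 10458 in the knockout livers. In the tumours they were 10304, 8723, 3961, 9595, 9508 and 9428. Every tumour was below every control, and tumour 5-1 stood far below the other tumours. The log2 change was -0.28 ± 0.24 (SE; adjusted p = 0.630) in livers and -0.66 ± 0.24 (adjusted p = 0.113) in tumours, both against controls. While Apoa1 was lowest in tumour 3, its chromosome 9 neighbours Apoc3, Apoa4 and Apoa5 each had their lowest tumour signal in tumour 5-1. Relative to the median of the non-tumorous livers, Apoa1 was at -0.21 on the log2 scale there, Apoc3 at -1.47, Apoa4 at -2.66 and Apoa5 at -2.05.

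Apoe, the ligand for remnant uptake, and Apoc1 are neighbours on chromosome 7, and neither passed the test in any comparison. Apoe had signals of 14236, 17108 and 15698 in the controls, 12215, 11575, 14039, 13657, 15798 and 14068 in the livers and 14304, 12785, 11700, 10873, 11215 and 13477 in the tumours. It was the steadiest member in the tumours, with an SD of 0.16 on the log2 scale, and all 3 groups overlapped. The log2 change in tumours against controls was -0.34 ± 0.15 (SE; adjusted p = 0.194). Apoc1, an inhibitor of remnant uptake, had signals of 7445, 7901 and 8451 in the controls, 6242, 6666, 6805, 6642, 8028 and 6745 in the livers and 6727, 6014, 6348, 4068, 5901 and 5447 in the tumours. Every tumour was below every control, while liver 5 lay among the controls. The log2 change in tumours against controls was -0.48 ± 0.16 (adjusted p = 0.0837). Apoc2, on the same stretch of chromosome, was above every control in the same samples.

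Apob showed no difference past the test in any comparison. Its signals were 4806, 4183 and 5267 in the controls and 5053, 4247, 4143, 6026, 4594 and 4789 in the livers. In the tumours they were 5958, 4348, 2332, 5757, 4306 and 4253, and without tumour 5-1 the other tumours lay within the range of the livers. The log2 change was 0.01 ± 0.23 (SE; adjusted p = 0.988) in livers and -0.14 ± 0.23 (adjusted p = 0.781) in tumours, both against controls. The sign of both differences turned when single samples were left out, and that of tumours against controls also with quantile normalization (0.019).

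**Figure D2:**
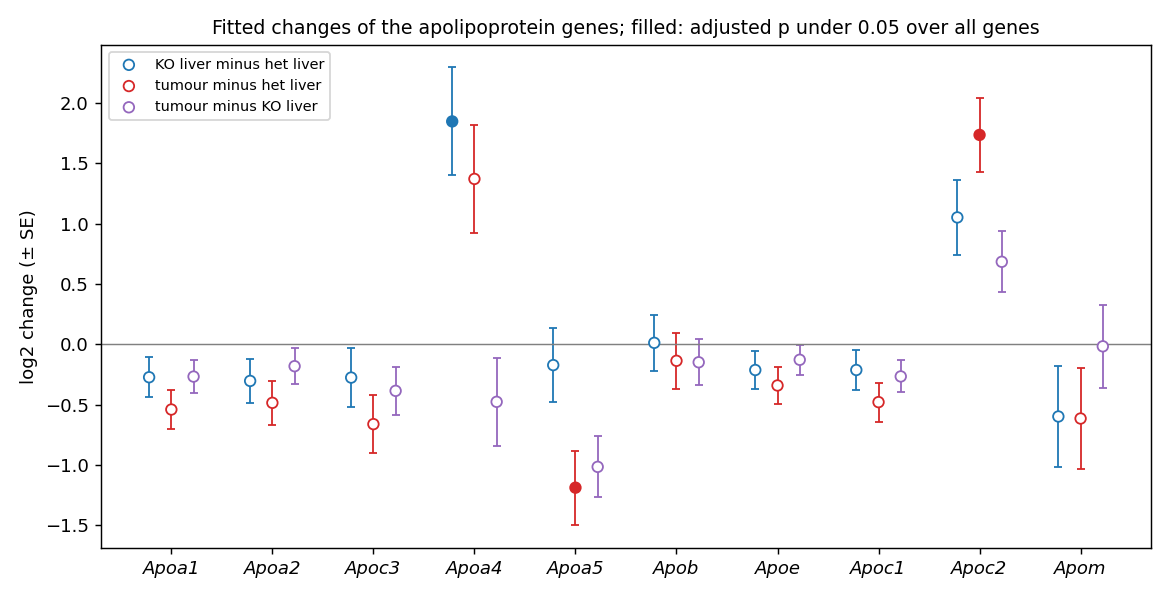
Log2 change with its SE (vertical axis) of the 10 genes in the 3 comparisons of the fit over all genes; filled points passed the adjusted p of 0.05. The filled points are Apoa4 in livers against controls, at 1.85, and Apoc2 at 1.74 and Apoa5 at -1.19 in tumours against controls.

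Counted together, with 1 probe set a gene, 5 of the 10 genes did not overlap between non-tumorous livers and controls (Apoa4 and Apoc2 higher, Apoa1, Apoa2 and Apom lower), beside 14.8% of all genes, 8% higher and 6.78% lower. In tumours against controls 6 did not overlap (Apoc2 higher, Apoa1, Apoa2, Apoa5, Apoc1 and Apoc3 lower), beside 11.4% of all genes, 5.3% higher and 6.13% lower. Between tumours and non-tumorous livers 0 of 10 were free of overlap, beside 0.692% of all genes. The median log2 change of the 10 genes was -0.21, -0.22 and -0.48 in livers against controls, tumours against livers and tumours against controls. Over all genes tested the same medians were -0.02, 0.01 and -0.02, and over the 100 genes with the highest mean signal they were -0.18, -0.14 and -0.35. The brightest genes of these arrays, which include 7 of the members, thus had medians of the same sign. The share of genes lower in tumours than in livers, whatever the size, was 48.7% over all genes, against 9 of the 10 members. The 9 include Apob at -0.15 ± 0.19 (SE) and Apom at -0.02 ± 0.34 (SE), whose other probe set was at 0.20.

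The tumours differed among themselves more than the livers did. The median SD of log2 signal over the 10 genes was 0.11 in controls, 0.19 in non-tumorous livers and 0.50 in tumours, beside 0.25, 0.29 and 0.43 over all genes tested. It was higher in tumours than in non-tumorous livers for 9 of 10 members, all but Apoe, and for 73.3% of all genes. The ratio of the highest to the lowest tumour was 8.65 for Apoa4 (13.1 with its other probe set), 3.59 for Apoc2 and 3.32 for Apoa5. No tumour was low throughout. Tumour 5-1 was the lowest in Apoa2, Apoa4, Apoa5, Apob and Apoc3, tumour 5-2 in Apoc1, Apoe and Apom, tumour 3 in Apoa1 and tumour 6-1 in Apoc2. Tumours 3, 4 and 5-1, the 3 highest in Apom, were the 3 lowest in Apoa5.

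Set against the liver of its own animal, Apoc1 and Apoc3 were lower in 6 of 6 tumours, and Apoa5 in 5 of 6. For Apoc3 the log2 differences were -0.16, -0.41, -1.71, -0.44, -0.14 and -0.15 in tumours 3, 4, 5-1, 5-2, 6-1 and 6-2, and for Apoc1 they were -0.02, -0.14, -0.34, -0.98, -0.19 and -0.31. Those of Apoa5 were -1.39, -1.68, -2.28, -0.85, -0.05 and 0.06, so that the 2 tumours of mouse 6 were level with their own liver. Apoc2 was higher in 5 of 6, at 1.60, -0.22, 1.22, 1.49, 0.05 and 1.02. Apom was higher in tumours 3, 4 and 5-1, by 0.55, 1.23 and 0.76, and lower in 5-2, 6-1 and 6-2, at -1.58, -0.17 and -1.12. On the second Apom probe set tumour 6-1 was instead higher than its own liver, by 0.63. Within mouse 5, Apoa4 was at -2.45 in tumour 5-1 and at -0.53 in tumour 5-2, while Apoc2 was at 1.22 and 1.49. These 6 differences come from 4 mice and were not tested on their own.

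**Figure D3:**
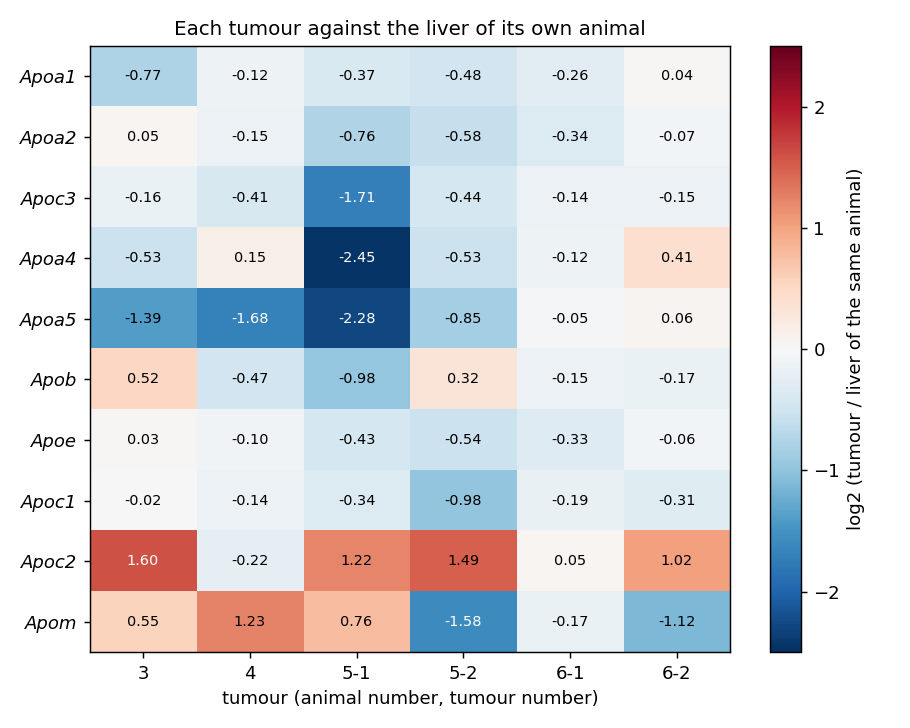
Log2 ratio of each tumour (columns, by mouse and tumour number) to the non-tumorous liver of the same mouse, for the 10 genes (rows); colour and printed value give the same number. Apoc1 and Apoc3 are below 0 in every column, Apoc2 is above 0 in all but tumour 4, and Apom changes sign between tumours 5-1 and 5-2.

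Among the other genes of the pathway, those that load and export the particles did not pass the test. Of 15 genes of lipoprotein assembly and secretion tested, 0 passed in any comparison in limma, with medians of -0.08, -0.05 and -0.06 in the order of comparisons used above. At an unadjusted p under 0.05 there were 1, 3 and 5, beside 1492, 985 and 2132 of the 9532 genes tested. P4hb, the small subunit of the microsomal triglyceride transfer complex and the brightest gene of the list, had mean signals of 4197, 3522 and 3850 in controls, livers and tumours. Mttp, the large subunit, had 886, 844 and 799.

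Of 10 lipoprotein receptors and their regulators, 1 rose in each comparison, the fatty acid and lipoprotein receptor Cd36. Its mean signal was 64.4 in controls, 396 in non-tumorous livers and 1113 in tumours, with log2 changes of 2.34 (adjusted p = 0.00213) in livers against controls and 1.57 (adjusted p = 0.0425) in tumours against livers. Of 15 lipases, remodelling enzymes and efflux pumps, Lpl rose in livers (log2 change 2.58, adjusted p = 0.0377) and in tumours against controls (3.20, adjusted p = 0.00430), from a mean of 79.6 to 612 and 1077. Lpl is the lipase that Apoc2 switches on. In the tumours against controls Lcat, which esterifies cholesterol on HDL with Apoa1 as cofactor, fell (-0.85, adjusted p = 0.0474), as did Angptl6 (-1.62, adjusted p = 0.0126). The medians of these lists in tumours against controls were -0.09 and -0.10.

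Of 12 other apolipoproteins and lipoprotein-borne proteins, 3 fell in tumours against controls, beside 2.94% of all genes. In livers against controls and tumours against livers 0 passed in limma. In the latter comparisons 5 and 3 had an unadjusted p under 0.05, beside 1492 and 985 of the 9532 genes tested. The 3 that fell were Apoc4, which lies beside Apoc2 (log2 change -0.81, adjusted p = 0.0450), Apoh (-0.51, adjusted p = 0.0371) and Apon (-0.81, adjusted p = 0.0159). Their mean signals in controls, livers and tumours were 4957, 4149 and 2932 for Apoc4, 9968, 7804 and 7017 for Apoh and 2990, 2248 and 1728 for Apon. Apoc4 and Apoc2, next to each other in the genome, thus differed in opposite directions.

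Of 25 transcription factors that act on apolipoprotein genes, 6 fell and 1 rose in tumours against controls, beside 2.94% and 3.93% of all genes. In livers against controls and tumours against livers 0 passed in limma. There, 8 and 3 had an unadjusted p under 0.05, beside 1492 and 985 of the 9532 genes tested. The median of the list was -0.43 in tumours against controls. The 6 were Nr2f2 (COUP-TFII; log2 change -1.18, adjusted p = 0.00337), Srebf1 (-0.78, adjusted p = 0.0447), the bile acid receptor Nr1h4 (-0.74, adjusted p = 0.00599), Rxra (-0.67, adjusted p = 0.0360), Cebpa (-0.65, adjusted p = 0.0220) and Rora (-0.61, adjusted p = 0.0337). Pparg rose (1.90, adjusted p = 0.0496), with dim, overlapping signals of 4.9 to 23.7 in controls and 12.4 to 283 in tumours. Hnf4a, which binds many apolipoprotein promoters, did not pass, with means of 1775, 1657 and 1525 in controls, livers and tumours. Creb3l3, an activator of Apoa4, Apoa5 and Apoc2, did not pass either, with 1275, 998 and 854, nor did Ppara, with 1643, 1053 and 999. Of 11 hepatocyte markers, Tat, Tdo2 and Pck1 fell in tumours against controls, and the median of that list was -0.53.

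**Figure D4:**
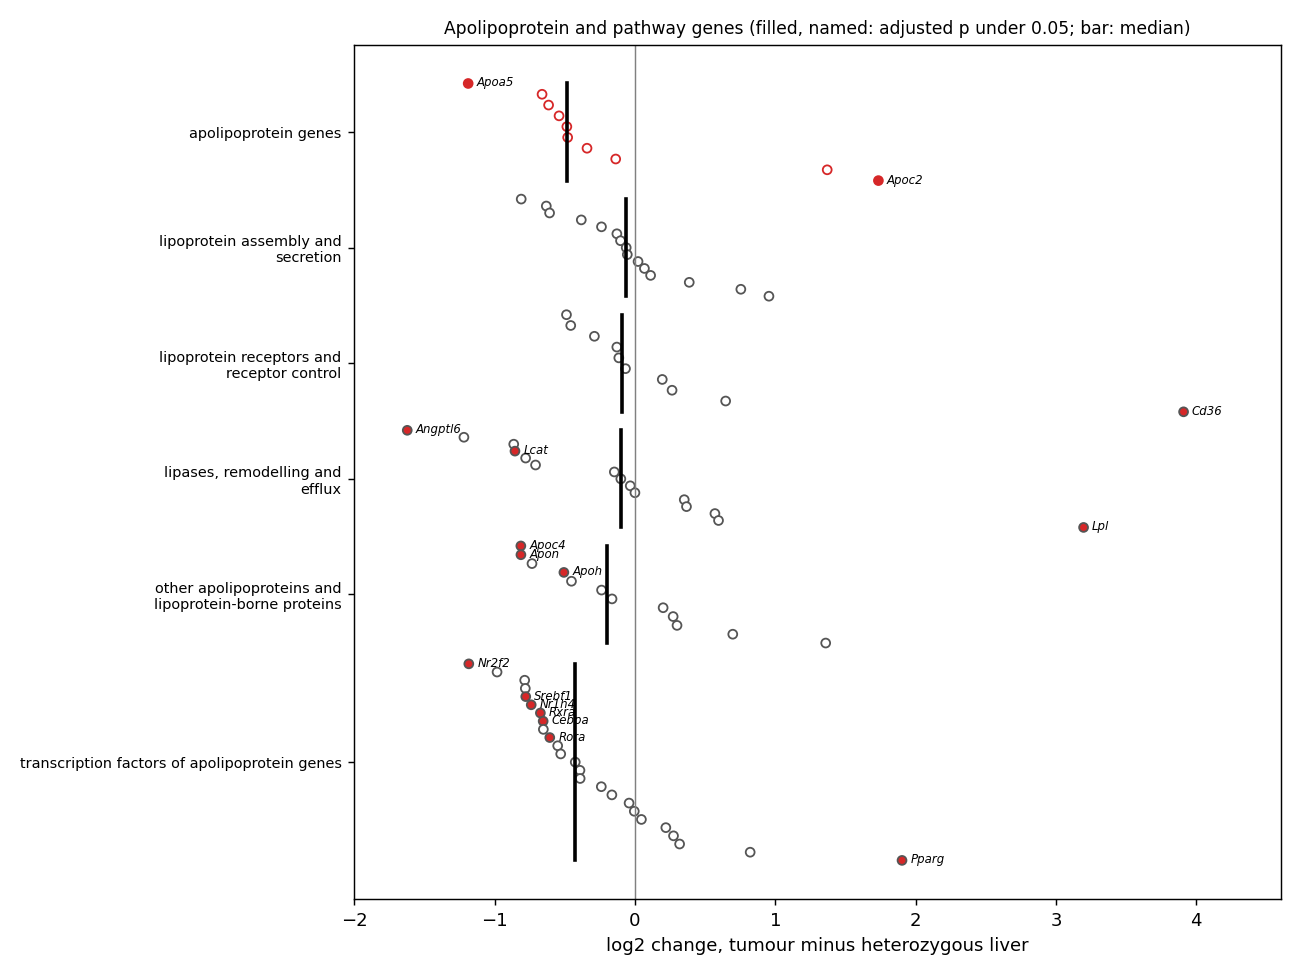
Log2 change in tumours against heterozygous livers (horizontal axis) of the 10 apolipoprotein genes and of the genes tested in 5 pathway lists, each point a gene, ordered by value within its list; bars are list medians. Filled, named points passed the adjusted p of 0.05. Cd36 at 3.91 and Lpl at 3.20 lie farthest to the right.

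Some members were close to each other over the 15 samples and others were not. Pearson's r of log2 signal was highest for Apoa2 with Apoe (0.887), followed by Apoa5 with Apoc3 (0.819) and Apoa2 with Apoc3 (0.808), and lowest for Apoa1 with Apoc2 (-0.763). Apoa4 and Apoc3 had an r of 0.215 over all samples and 0.786 once the group means were taken out. These values share the arrays, the scaling and the group differences, and are descriptions. The gene outside the 10 with the highest r, out of all genes tested, was albumin for Apoa2 (0.953) and for Apoe (0.945). It was Bcap31 for Apoa1 (0.844), Ccnd1, which encodes cyclin D1, for Apoa4 (0.917), Id2 for Apoa5 (0.937) and Mecr for Apob (0.851). For Apoc1 it was Gstp1 (0.903), for Apoc2 the sulfiredoxin gene Srxn1 (0.909), for Apoc3 the class I gene H2-Q10 (0.931) and for Apom the ferrochelatase gene Fech (0.877). Gstp1 and H2-Q10 have near-identical copies that a probe set may not tell apart. With group means taken out these were 0.580 for Bcap31, 0.71 for Srxn1, 0.823 for Ccnd1 and 0.838 to 0.938 for the others.

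Markers of other cell types differed between the groups as well, and their part in the values above was not tested. Summed over 12 stellate cell and fibroblast markers, the signal was 1798 to 2326 in controls, 2730 to 6398 in non-tumorous livers and 1064 to 3929 in tumours. Lum and Pdgfrb were higher in livers and Col1a1 in tumours, each against controls, where Col1a1 had a mean of 7.03. The median log2 change of the 12 was 0.65 in livers and -0.05 in tumours against controls, with 9 and 5 above 0. Over 7 bile duct markers the summed signal was 147 to 263, 310 to 474 and 99.4 to 431, with Cdh1 higher than in controls in both. Cdh1, the brightest of the 7, had mean signals of 48.1, 217 and 123 in controls, livers and tumours. The median log2 change of the 7 was 0.07 in livers and 0.16 in tumours, each against controls. Over 12 endothelial markers the summed signal was 1216 to 1630, 1611 to 2339 and 620 to 1826. Emcn, with a mean of 8.97 in controls, was higher in tumours than in controls. The median log2 change of the 12 was 0.44 in livers and 0.04 in tumours against controls, with 11 and 6 above 0. Over 4 intestinal markers the summed signal was 733 to 902, 724 to 1128 and 405 to 1702. Over 7 neutrophil, T and B cell markers, where 0 passed in limma and 0 had an unadjusted p under 0.05 in any comparison, it was 202 to 324, 171 to 224 and 103 to 402.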

How the data were processed

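Gene expression was measured in 15 mouse liver samples on Affymetrix arrays, whose deposited values are linear intensity signals per probe set made by the authors with MAS5, per the submitters' processing notes. Its version and settings are not given in the sources used here, and no detection calls were used. Array means after a 2% trim at either end lay between 149 and 150, and array medians between 35.8 and 51.2.

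Of 22690 probe sets, 64 controls were left out; 20393 had 1 gene in the platform annotation, 691 several and 1606 none listed. Signals were transformed as log2 (signal + 9.1), the 20th percentile, which understates folds of dim genes. A probe set was kept when 3 or more arrays had it above their 40th percentile, which left 16128, and 14803 of these named 1 gene. The probe set with the highest mean stood for its gene, which gave 9532 genes.

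In R 4.3.3, limma 3.58.1 fitted 1 model to the 15 arrays (lmFit, eBayes with trend), in which the animal was a random block through duplicateCorrelation (with statmod 1.5.0; consensus -0.0174). Adjusted p are Benjamini-Hochberg over all genes, and "passed", "rose" and "fell" mean an adjusted p under 0.05. The fit was tested on simulated data. Samples of the same animal are paired by the labels; after group means were taken out, livers and tumours of the same animal correlated at -0.157 to 0.0853 and those of different animals at -0.101 to 0.171.

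Named were all members, each called pathway gene or else the brightest of its list, called marker genes, and the gene with the highest r to each member; Mttp, Fabp2, Hnf4a, Creb3l3 and Ppara were added after their values were seen. The members and lists were chosen with earlier results of these data known. Alternatives were other constants, filters, scalings, probe set rules, blocks, weights, an RNA quality covariate and leaving out each sample.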

Additional observations from a re-analysis of the deposited data

Results flagged for a closer look

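In groups of 6 samples, a sample was picked out by its gap to the nearest other sample, divided by the range of the group. Gap and range were taken after the log2 transform described above, while the signals printed here are linear. The ratio had to be above Dixon's 95% critical value. Chance gives this in about 1 of 20 groups, and 4 of 30 groups met it. Tumour 5-1 was low for Apoc3, with a signal of 3961 against 8723 in the next tumour (ratio 0.826), and for Apob, with 2332 against 4253 (ratio 0.64). For 1 of the 4 probe sets of Apoa1, tumour 3 was low, with 11280 against 14490 (ratio 0.685). Non-tumorous liver 5 was high for Apoc1, with 8028 against 6805 (ratio 0.657).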

How the results depend on the processing

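Over the 10 genes, 791 results of alternatives kept their direction and side of the threshold, 21 newly passed, 20 no longer passed and 18 changed sign; the cause was not tested. Genes called in livers against controls, 160 in the fit reported, were 99 with a constant of 50, 994 with only the groups compared, 350 with tumours of an animal averaged, 21 with the actin ratio as covariate, 293 with all probe sets tested, 851 with array weights and 34 to 298 with 1 sample left out. Members called there (1) were 0 with a constant of 50, no filter, median-centred arrays or the mean of a gene's probe sets, 3 with only the groups compared, 2 with averaged tumours or array weights and 0 to 2 with 1 sample left out. Genes called in tumours against livers (13) were 0 in limma with only the groups compared, with the animal as a fixed replicate block or with the actin ratio (879, 731 and 743 at an unadjusted p under 0.05), 49 with averaged tumours, 20 with all probe sets, 8 with array weights and 0 to 62 with 1 sample left out; members called were 1 (Apoa5) with averaged tumours and 0 otherwise. Genes called in tumours against controls (655) were 117 with only the groups compared, 21 with the actin ratio, 1026 with all probe sets and 216 to 782 with 1 sample left out. Members called there (2) were 4 with a stricter filter, 1 with only the groups compared, 0 with the actin ratio, 5 with array weights and 1 to 4 with 1 sample left out.

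With no replicate block the counts were 160, 13 and 646, and no member changed its call. The fixed replicate block was fitted only to tumours against livers, where no member was called with or without it. Quantile normalization turned Apoa1 in livers against controls to 0.019, Apoa2 in tumours against livers to 0.025 and against controls to 0.0017, Apob in tumours against controls to 0.019, and ended the Apoa5 call there (adjusted p = 0.0571). Apom in tumours against livers turned to 0.082 with the fixed replicate block, 0.21 with averaged tumours, 0.15 with the actin ratio and 0.090 with the mean of its probe sets, and lay between -0.22 and 0.29 with 1 sample left out. Apob lay between -0.077 and 0.089 in livers against controls, -0.24 and 0.029 in tumours against livers, and -0.23 and 0.041 in tumours against controls, with 1 sample left out. All 15 probe sets passed the filter on dim signals.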
